A study of Mus musculus with 20 samples.

Results

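The matrix metalloproteinase (MMP) genes Mmp3, Mmp10, Mmp13, Mmp12, Mmp2, Mmp14 and Mmp9 and the genes of their tissue inhibitors Timp1, Timp2 and Timp3 were examined in normal skin (NS), actinic keratosis (AK, a precancerous skin lesion) and cutaneous squamous cell carcinoma (cSCC) of mice. They were taken by gene symbol from the table of raw counts. All 10 were found among its 22090 genes, and all 10 had enough counts to be tested in each comparison.

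MMPs are zinc-dependent proteases that cut proteins of the extracellular matrix, and most are secreted as inactive proenzymes that another protease has to cleave. TIMPs are small secreted proteins that bind the active site of MMPs and block it. In skin, Mmp2 and Mmp14 are known chiefly as products of dermal fibroblasts, Mmp12 of macrophages and Mmp9 of neutrophils and keratinocytes, whereas Mmp3, Mmp10 and Mmp13 are low in resting skin and are known for being induced in keratinocytes or stroma during wound healing and in tumors.

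RNA was sequenced from 20 back skin tissues of female hairless SKH-1 mice: 8 NS, 8 AK and 4 cSCC. By the study's methods the mice were 7 months old when they were divided into groups, and tissues were taken after the irradiation period. Of the 8 mice, 4 were never irradiated and 4 received simulated solar ultraviolet light, daily by the labels and on several days a week for months by the study's methods. Each unirradiated mouse gave NS tissue, and each irradiated mouse gave NS, a pair of AK tissues of unlike grade and a cSCC. The labels do not say which mouse a tissue came from, whether an NS tissue was irradiated, or the grade of an AK, so these were not separated here, and p-values treat tissues that share a mouse as independent samples. Samples are called by group and by the number in their label.

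Total counts ranged from 775750 (cSCC 20) to 14055206 (AK 10), and 3 counts corresponded to between 0.225 and 3.78 CPM (the count relative to the library size scaled by its TMM factor). Over 62 pairs of samples within groups, chi-square per degree of freedom was 11.3 or more, so no library appeared to be deposited a second time. A pair of cSCC libraries stood apart from the rest. The summed level of 9 heart muscle markers was 60837 CPM in cSCC 21, against at most 84.5 CPM in NS and AK, and that of 6 lung epithelium markers was 35805 CPM in cSCC 20, against at most 51.7 CPM in NS and AK. The heart sum was 82.0 CPM in cSCC 18, 109 CPM in cSCC 19 and 170 CPM in cSCC 20, near or above the highest NS and AK sample. Calls in cSCC are therefore also given with both of these libraries left out where that ended or added a call among the genes named. Such fits keep only cSCC 18 and cSCC 19 as cSCC samples. The TMM factor of cSCC 18 was 0.509, the lowest of all samples, and the next lowest was 0.852 (cSCC 21). In cSCC 18, 3 counts were 1.06 CPM by library size alone and 2.08 CPM with the factor. The CPM levels of cSCC 18 thus depend strongly on the scaling. In bulk tissue, fewer cells of a type and less RNA per cell cannot be told apart.

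Mmp13, Mmp12, Mmp3 and Mmp10 lie in a cluster of 10 MMP genes on chromosome 9 (chr9:7272514-7699585, GRCm38), which spans 427.1 kb. The other 6 members lie on chromosomes 8 (Mmp2), 14 (Mmp14), 2 (Mmp9), X (Timp1), 11 (Timp2) and 10 (Timp3). RefSeq promoters (GRCm38.p6, 250 bases before the start) were matched for 8 of the 10 members, with 2 starts for Mmp12. They were searched for TGANTCA, the form of site that AP-1 (Fos and Jun proteins) is known to bind, where N is any base and which reads alike on both strands, and for TATAAA on the strand of the gene. TGANTCA was found in 4 of 9 promoters of these genes and in 6.75% of all 32851 promoters, and TATAAA in 3 of 9 and in 7.59%. The 120 bases before the start are shown for the promoters that held TGANTCA, all on the + strand and all in the cluster, because they allow the 3 genes whose balance is followed here, Mmp13, Mmp3 and Mmp10, to be set beside a neighbor that was not called in any comparison, Mmp12. Capitals mark TGANTCA and TATAAA matches, which did not overlap each other.
Mmp13, chr9:7272394-7272513: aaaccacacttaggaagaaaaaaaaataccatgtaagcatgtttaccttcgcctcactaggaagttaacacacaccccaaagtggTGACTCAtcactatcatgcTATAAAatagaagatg
Mmp3, chr9:7445702-7445821: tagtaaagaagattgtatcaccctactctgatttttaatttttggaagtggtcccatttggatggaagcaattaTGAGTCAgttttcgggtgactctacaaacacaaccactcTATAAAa
Mmp10, chr9:7502222-7502341: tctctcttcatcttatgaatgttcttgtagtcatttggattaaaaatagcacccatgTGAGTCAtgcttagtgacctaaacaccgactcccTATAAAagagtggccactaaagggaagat
Mmp12 (the second start), chr9:7347254-7347373: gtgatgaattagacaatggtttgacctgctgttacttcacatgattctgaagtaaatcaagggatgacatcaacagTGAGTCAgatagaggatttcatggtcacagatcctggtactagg

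Counted from the base before the start as -1, TGANTCA lay at -35 to -29 in Mmp13, -46 to -40 in Mmp3, -63 to -57 in Mmp10 and -44 to -38 in the second start of Mmp12. TATAAA lay at -16 to -11 in Mmp13, -7 to -2 in Mmp3 and -29 to -24 in Mmp10. The bases that follow the starts used for Mmp10 and Mmp14 were not found in a GENCODE transcript of the gene. The GENCODE gene of Mmp10 begins at chr9:7502352, after the RefSeq start, so the Mmp10 positions hold for the RefSeq start only. Neither motif was found in the first start of Mmp12 or in the promoters of Mmp14, Timp1, Timp2 and Timp3. A match is a description of the letters in this window and not evidence of a bound site.

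Genes were called by edgeR's quasi-likelihood test at a Benjamini-Hochberg adjusted p-value under 0.05 over all genes tested, with a fold change above 1.5 or below 0.67. In AK vs NS, which asks what differs in the precancerous lesion, 2 of the 10 genes were called higher (Mmp13 and Mmp10), against 2.26% of all genes tested, and 0 were called lower, against 2.38%. In cSCC vs NS, 5 of 10 were called higher (Mmp13, Mmp10, Mmp9, Mmp3 and Timp1), against 11.7% of all genes, and 0 lower, against 7.65%. In cSCC vs AK, only Timp1 was called higher, against 16% of all genes, and 0 were called lower, against 8.34%. Thus 3 of the 7 MMP genes, Mmp12, Mmp2 and Mmp14, were not called in any of the comparisons, nor were Timp2 and Timp3. The median log2 fold change of the 10 genes was 0.28 in AK vs NS, 1.55 in cSCC vs NS and 1.34 in cSCC vs AK, beside -0.04, 0.14 and 0.17 over all genes tested. AK vs NS and cSCC vs NS share the NS samples, so their values are set side by side without a test of likeness. With cSCC 20 and 21 left out, 4 of 10 were called higher in cSCC vs NS (Timp1 was lost), against 5.74% of all genes, and 3 of 10 in cSCC vs AK (Mmp10, Mmp13 and Timp1), against 6.71%.

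**Figure D1:**
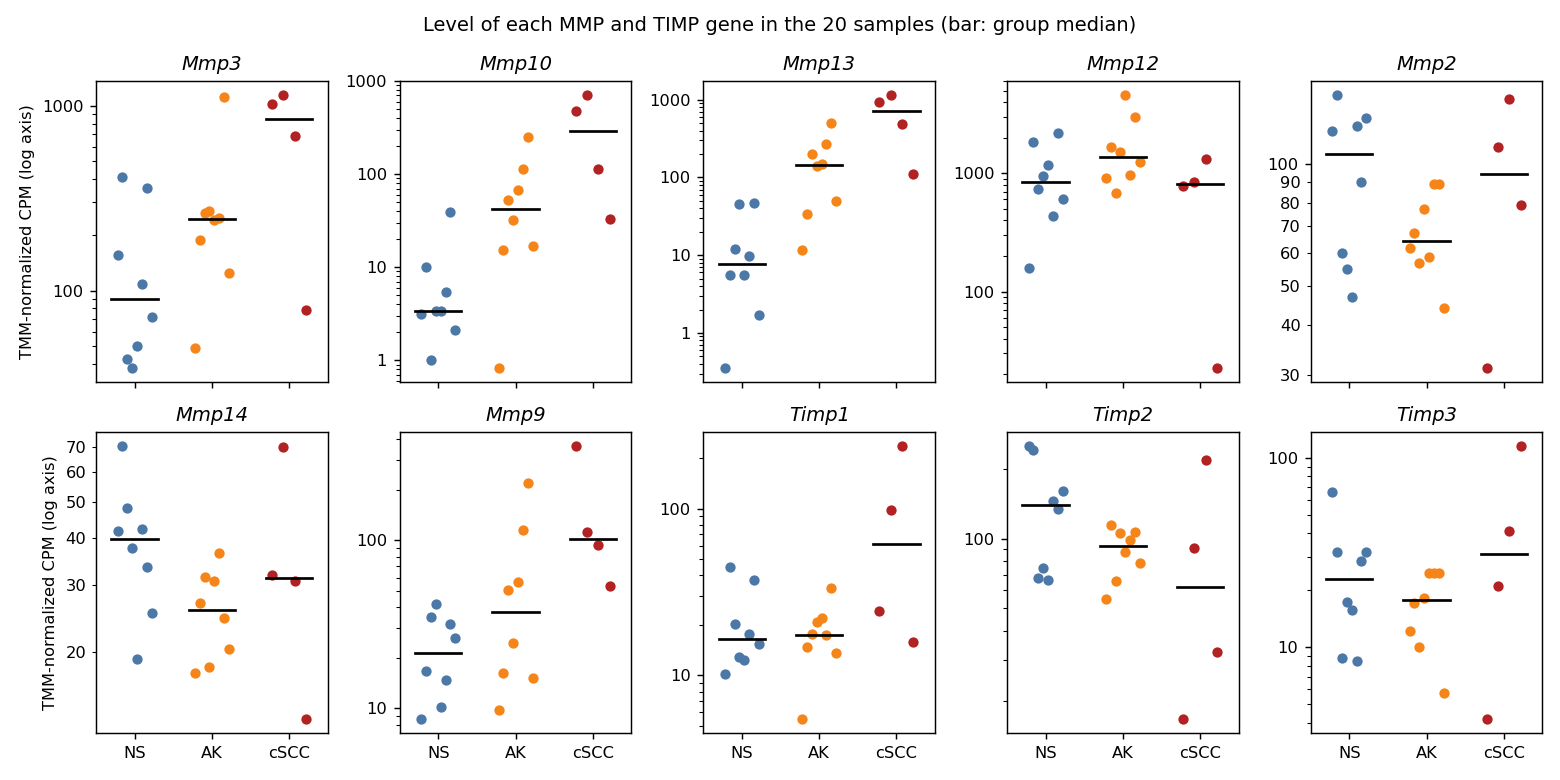
TMM-normalized CPM of each of the 10 genes (log axis, 1 panel per gene, each with its own range) in the 8 NS, 8 AK and 4 cSCC samples, 1 point per sample, with a bar at the group median. All 4 cSCC points lie above every NS point for Mmp13 and Mmp9, whereas the groups overlap for the other 8 genes.

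Mmp3 encodes stromelysin 1, a protease of broad range that also activates other MMPs. Its level ranged from 38.0 CPM (NS 5) to 410 CPM (NS 2) in NS with a median of 90.3 CPM. In AK it ran from 48.8 CPM (AK 10) through a median of 245 CPM to 1114 CPM (AK 16), and in cSCC it was 1019 CPM in cSCC 18, 1148 CPM in cSCC 19, 686 CPM in cSCC 20 and 78.4 CPM in cSCC 21. Of the cSCC samples, 3 of 4 lay above the highest NS sample, and cSCC 21 lay below the NS median. The difference was called in cSCC vs NS (log2 fold change 2.29, SE 0.70, edgeR adjusted p = 0.0343) and not in AK vs NS (1.00, SE 0.58, adjusted p = 0.294) or cSCC vs AK (1.30, SE 0.68, adjusted p = 0.173). Without AK 16 the AK vs NS value was 0.33, and the cSCC vs AK value was called (1.98, adjusted p = 0.0249). The cSCC vs NS call was close to the threshold: it was lost in 9 of the 12 fits that left out 1 sample, in which the adjusted p ran from 0.0127 to 0.0909, and it was kept without cSCC 20 and 21 (2.84, adjusted p = 0.0234).

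Mmp10 encodes stromelysin 2, a close paralog of stromelysin 1 known at the migrating edge of wounded epidermis. How reads that match both genes were counted is not given in the sources used here, so the split between Mmp3 and Mmp10 is uncertain to that extent. In NS, Mmp10 ran from 1.02 CPM (NS 4, 3 counts) through a median of 3.38 CPM to 39.6 CPM (NS 8). AK samples ran from 0.823 CPM (AK 10) through 42.4 CPM to 254 CPM (AK 16), and the cSCC levels were 472 CPM in cSCC 18, 714 CPM in cSCC 19, 114 CPM in cSCC 20 and 32.7 CPM in cSCC 21. AK 10 was the lowest of all 20 samples, while 4 of 8 AK and 3 of 4 cSCC samples exceeded every NS sample. Mmp10 rose in AK vs NS by a log2 fold change of 3.01 (SE 0.84, 8.04-fold, edgeR adjusted p = 0.0426) and in cSCC vs NS by 5.33 (SE 0.89, 40.3-fold, adjusted p = 0.00228). The direct difference of cSCC vs AK, 2.35 (SE 0.94, adjusted p = 0.0793), was not called with all samples, and was called without cSCC 20 and 21 (3.19, adjusted p = 0.0442) and without AK 16 (3.06, adjusted p = 0.0301). The AK vs NS call was lost in 12 of the 16 fits that left out 1 sample, with adjusted p up to 0.108. The log2 fold change there was 4.03 without NS 8 and 2.31 without AK 16, and in cSCC vs NS it was 6.32 without NS 8 and 4.63 without cSCC 19, where the call was kept.

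Mmp13 encodes collagenase 3, which cuts fibrillar collagen and takes the place of collagenase 1 in much of mouse biology. NS samples ran from 0.352 CPM (NS 1, 2 counts) through a median of 7.68 CPM to 47.2 CPM (NS 8). AK samples ran from 11.5 CPM (AK 10) through 146 CPM to 506 CPM (AK 16). The cSCC levels were 926 CPM in cSCC 18, 1163 CPM in cSCC 19, 489 CPM in cSCC 20 and 112 CPM in cSCC 21. Every cSCC sample exceeded every NS sample, and so did 6 of 8 AK samples. Not overlapping with cSCC higher was seen for 2 of the 10 genes, Mmp13 and Mmp9, and for 2.70% of all genes tested in cSCC vs NS. Mmp13 rose by a log2 fold change of 3.41 in AK vs NS (SE 0.79, 10.6-fold, edgeR adjusted p = 0.0247) and by 5.45 in cSCC vs NS (SE 0.93, 43.8-fold, adjusted p = 0.00253), the largest values of the 10 genes in both comparisons. The AK vs NS call was lost without NS 4 (adjusted p = 0.0530) and without AK 16 (2.93, adjusted p = 0.0530). In cSCC vs AK the difference was 2.06 (SE 0.75, adjusted p = 0.0566), past the threshold without cSCC 21 (2.35, adjusted p = 0.0365), without cSCC 20 and 21 (2.69, adjusted p = 0.0401) or without AK 16 (2.55, adjusted p = 0.0251).

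Mmp12, the metalloelastase of macrophages, lay beside Mmp13 in the cluster and differed from it in pattern. NS samples ran from 159 CPM (NS 1) through 837 CPM to 2170.3 CPM (NS 8), and AK samples from 677 CPM (AK 12) through 1377 CPM to 4611 CPM (AK 14). The cSCC levels were 779 CPM in cSCC 18, 842 CPM in cSCC 19, 1308 CPM in cSCC 20 and 22.5 CPM in cSCC 21. All cSCC samples but cSCC 21 lay inside the NS range, and cSCC 21 was the lowest of the 20 samples. No comparison was called (log2 fold change 0.84 in AK vs NS, -0.39 in cSCC vs NS and -1.22 in cSCC vs AK, edgeR adjusted p = 0.267, 0.764 and 0.247). Without cSCC 21 the cSCC vs NS value was 0.01. The summed level of 9 macrophage markers was 851 CPM in cSCC 21, the lowest of the 20 samples, and 2308 CPM, 5445 CPM and 7434 CPM in cSCC 18, 19 and 20. It ran from 1431 to 4994 CPM in NS and from 1319 to 8079 CPM in AK, with every marker detected in each group. The sum is weighted by abundant markers, and Lyz2 gave 465 CPM of it in cSCC 21. There Lyz2, Cd68 (30.8 CPM) and Mrc1 (21.8 CPM) lay below every NS and AK sample, whereas Cd14 (114 CPM) lay above every one. The markers were thus not all low in cSCC 21. The part of the macrophage markers in the Mmp12 levels was not tested. Mmp12 (chr9:7344381-7369499) and Mmp1b (chr9:7368239-7388047) overlap at their ends on opposite strands. The strand setting of the counting is not given in the sources used here, so reads inside this overlap may not be told apart.

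Mmp2 and Mmp9 encode the gelatinases, which cut denatured collagen and type IV collagen of basement membranes. Mmp9 ran from 8.63 CPM (NS 1) through 21.5 CPM to 41.6 CPM (NS 5) in NS and from 9.73 CPM (AK 10) through 37.5 CPM to 219 CPM (AK 16) in AK. In cSCC it was 365 CPM in cSCC 18, 112 CPM in cSCC 19, 93.3 CPM in cSCC 20 and 53.4 CPM in cSCC 21. Every cSCC sample lay above every NS sample, as did 4 of 8 AK samples. Mmp9 rose in cSCC vs NS by a log2 fold change of 2.79 (SE 0.49, 6.92-fold, edgeR adjusted p = 0.00288), and by 1.92 without cSCC 18, its highest sample (adjusted p = 0.00678). The values in AK vs NS (1.42, SE 0.56, adjusted p = 0.124) and cSCC vs AK (1.37, SE 0.73, adjusted p = 0.180) were not called, the latter passing the threshold without AK 16 (2.01, adjusted p = 0.0401).

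Mmp2 ran from 46.8 CPM (NS 6) through 105 CPM to 148 CPM (NS 2) in NS, from 44.1 CPM (AK 17) through 64.6 CPM to 89.3 CPM (AK 16) in AK, and was 31.3 CPM in cSCC 18, 109.9 CPM in cSCC 19, 144 CPM in cSCC 20 and 79.2 CPM in cSCC 21. The groups overlapped throughout, and cSCC held both the lowest sample and, in cSCC 20, a level near the NS maximum. Mmp14 encodes a membrane-anchored MMP that activates the Mmp2 proenzyme. It ran from 19.2 CPM (NS 6) through 39.8 CPM to 70.4 CPM (NS 2) in NS, from 17.5 CPM (AK 10) through 25.7 CPM to 36.6 CPM (AK 15) in AK, and was 32.0 CPM in cSCC 18, 69.9 CPM in cSCC 19, 30.7 CPM in cSCC 20 and 13.2 CPM in cSCC 21. No comparison was called for either gene. In AK vs NS the log2 fold changes were -0.53 for Mmp2 (SE 0.23, edgeR adjusted p = 0.170) and -0.66 for Mmp14 (SE 0.24, adjusted p = 0.0995). In cSCC vs NS they were -0.02 (95% interval -0.82 to 0.77) and -0.08 (-0.88 to 0.71), intervals that leave out changes of the size seen for Mmp13, Mmp10 and Mmp9. Between cSCC and AK, Mmp2 gave 0.55 (SE 0.33, adjusted p = 0.237) and Mmp14 gave 0.60 (SE 0.36, adjusted p = 0.231). Mmp2 passed the threshold there without cSCC 18 (0.74, adjusted p = 0.0433).

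Timp1 encodes an inducible TIMP that binds most secreted MMPs and also the Mmp9 proenzyme. It ran from 10.2 CPM (NS 1) through 16.6 CPM to 44.6 CPM (NS 2) in NS and from 5.46 CPM (AK 10) through 17.5 CPM to 33.6 CPM (AK 16) in AK. In cSCC it was 24.3 CPM in cSCC 18, 97.5 CPM in cSCC 19, 238 CPM in cSCC 20 and 15.9 CPM in cSCC 21. The cSCC samples thus spanned from inside the NS range to above it, with 2 of 4 above every NS and AK sample. Timp1 rose in cSCC vs NS (log2 fold change 2.19, SE 0.60, 4.58-fold, edgeR adjusted p = 0.0208) and in cSCC vs AK (2.47, SE 0.58, 5.54-fold, adjusted p = 0.00878). In AK vs NS it gave -0.27 and was not called. Both calls were lost without cSCC 20 alone, the library with lung genes, where the values were 1.14 (adjusted p = 0.157) and 1.45 (adjusted p = 0.0566). With cSCC 20 and 21 both left out, Timp1 gave 1.56 (adjusted p = 0.0756) in cSCC vs NS and was not called. In cSCC vs AK it gave 1.86 (adjusted p = 0.0273) and was called.

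Timp2 encodes the inhibitor that also takes part in the activation of the Mmp2 proenzyme by Mmp14. It ran from 66.5 CPM (NS 6) through 139 CPM to 251 CPM (NS 1) in NS and from 54.8 CPM (AK 10) through 92.9 CPM to 115 CPM (AK 11) in AK, and was 16.7 CPM in cSCC 18, 91.0 CPM in cSCC 19, 218 CPM in cSCC 20 and 32.4 CPM in cSCC 21. A pair of cSCC samples lay below every NS and AK sample and another, cSCC 20, lay near the top of NS. Its log2 fold changes of -0.70 in AK vs NS, -0.61 in cSCC vs NS and 0.11 in cSCC vs AK were not called (edgeR adjusted p = 0.125, 0.501 and 0.897). Timp3 encodes an inhibitor that stays bound to the matrix. It ran from 8.45 CPM (NS 7) through 23.0 CPM to 65.8 CPM (NS 1) in NS, from 5.71 CPM (AK 17) through 17.7 CPM to 24.7 CPM (AK 14) in AK, and was 4.17 CPM in cSCC 18, 21.1 CPM in cSCC 19, 41.0 CPM in cSCC 20 and 116 CPM in cSCC 21. The highest Timp3 level of all 20 samples was thus in the library with heart muscle genes and the lowest in cSCC 18. Its values of -0.62 (AK vs NS, adjusted p = 0.336), 0.90 (cSCC vs NS, 0.355) and 1.61 (cSCC vs AK, 0.0603) were not called, and without cSCC 20 and 21 the latter 2 became -0.97 and -0.32. Timp1 lies within Syn1, and Timp3 within Syn3, on the opposite strand, and Timp2 overlaps Cep295nl on the same strand. Reads of these pairs may not be told apart where exons coincide, for the pairs on opposite strands only if the counting ignored strand.

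**Figure D2:**
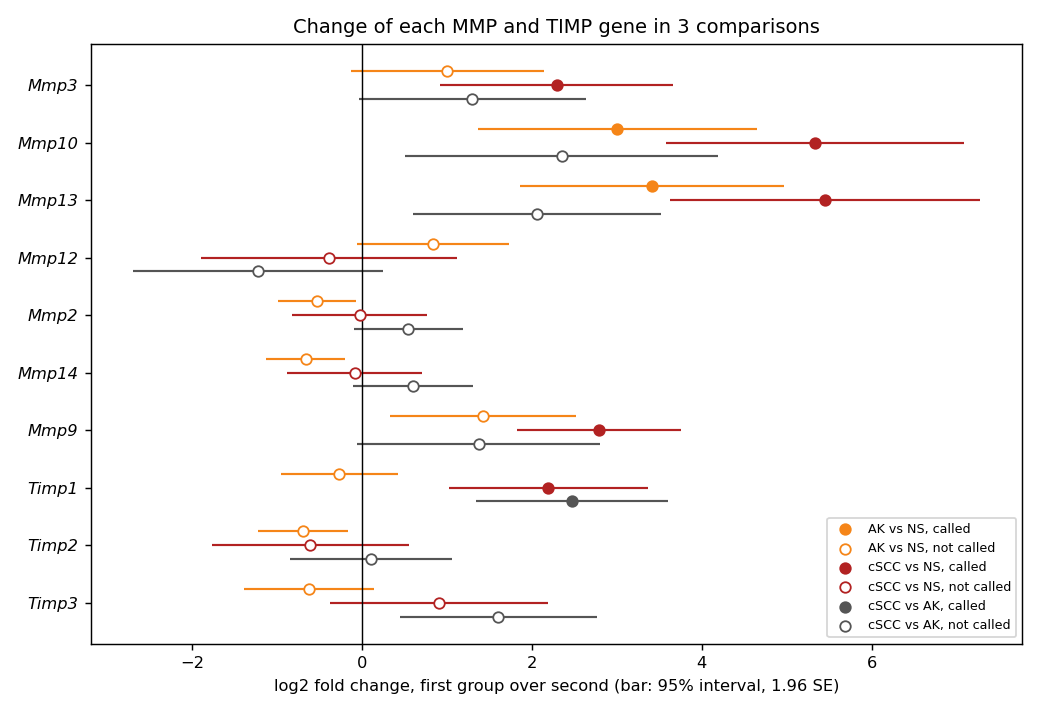
Log2 fold change of each of the 10 genes in the 3 comparisons (AK over NS, cSCC over NS, cSCC over AK), with bars for the 95% interval. Filled points passed the call rule, namely Mmp10 and Mmp13 in AK vs NS, 5 genes in cSCC vs NS (Mmp3, Mmp10, Mmp13, Mmp9, Timp1) and Timp1 in cSCC vs AK, and no filled point lies below 0.

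To set genes beside each other, CPM were divided by exon length in kb. In NS the order of mean levels was Mmp12 (139 ± 96.0 CPM per kb, SD, n = 8), Mmp3 (85.9 ± 82.2), Timp2 (36.5 ± 18.8), Mmp2 (28.7 ± 11.6), Timp1 (24.04 ± 14.2), Mmp14 (6.68 ± 2.61), Mmp9 (6.53 ± 3.48), Mmp13 (5.94 ± 7.12), Mmp10 (4.95 ± 7.46) and Timp3 (3.20 ± 2.29). Mmp13 and Mmp10 were thus near the bottom of the order in NS. In AK, Mmp12 (251 ± 184 CPM per kb, n = 8) and Mmp3 (173 ± 185) still led, followed by Mmp13 (63.7 ± 60.6) and Mmp10 (40.0 ± 48.0), then Timp2 (22.8 ± 5.49), Timp1 (20.5 ± 9.05), Mmp2 (20.2 ± 4.77), Mmp9 (17.9 ± 20.2), Mmp14 (4.33 ± 1.16) and Timp3 (2.11 ± 0.899). In cSCC, Mmp3 (407 ± 265 CPM per kb, n = 4), Mmp13 (252 ± 174) and Mmp10 (193 ± 184) came before Timp1 (106 ± 116), Mmp12 (102 ± 73.5), Mmp9 (44.1 ± 40.0), Mmp2 (27.1 ± 14.3), Timp2 (23.0 ± 23.5), Mmp14 (6.11 ± 4.00) and Timp3 (5.60 ± 6.06). Among neighbors in these orders, only Timp1 over Mmp14 in NS and Mmp14 over Timp3 in AK were further apart than the larger SD of the pair.

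**Figure D3:**
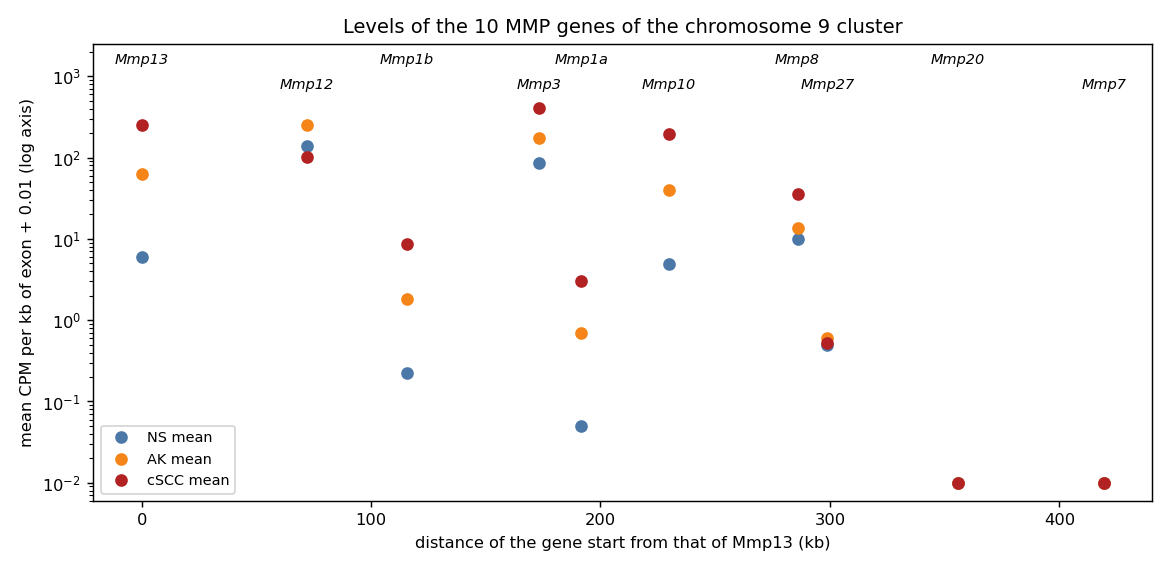
Mean CPM per kb of exon plus 0.01 (log axis) in NS, AK and cSCC for the 10 MMP genes of the chromosome 9 cluster, placed by the distance of their start from that of Mmp13 in kb. Mmp13, Mmp3 and Mmp10, at 0, 173.3 and 229.8 kb, are ordered NS, AK, cSCC from low to high. The means of Mmp8 and, at low counts, of Mmp1a and Mmp1b have the same order, whereas Mmp12 at 71.9 kb and Mmp27 do not. Mmp20 and Mmp7 had 0 counts in every group, so that their points coincide.

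The other 6 MMP genes of the cluster differed widely in level. Mmp8, the collagenase of neutrophils, had median levels of 2.26 CPM in NS, 34.7 CPM in AK and 81.7 CPM in cSCC and was tested and not called. NS 9 held 815 of its 928 counts in NS and, at 173 CPM, was the highest of all 20 samples, so the NS mean in the plot of the cluster is carried by this library. Mmp27 had means between 0.485 and 0.587 CPM per kb. Mmp27 and the mouse relatives of collagenase 1, Mmp1a and Mmp1b, had too few counts to be tested with all samples. In cSCC vs AK without cSCC 20 and 21 they were tested and not called (adjusted p = 0.222 for Mmp27, 0.367 for Mmp1a and 0.0859 for Mmp1b). Mmp1a summed to 4 counts over the 8 NS samples, 26 over the 8 AK samples, of which 16 were in AK 16, and 35 over the 4 cSCC samples. Mmp1b summed to 9, 56 and 114 counts, of which 25 were in AK 16 and 107 in cSCC 19. Of the 17 other MMP and TIMP genes of the table, 5, 5 and 6 passed the count filter in the 3 comparisons, and the 1 called was Mmp23, which rose in cSCC vs AK (log2 fold change 2.12, SE 0.45, edgeR adjusted p = 0.00559) from a mean of 5.02 ± 2.32 CPM (SD, n = 8) to 20.3 ± 11.6 CPM (n = 4). Timp4, an inhibitor prominent in heart, had 276 counts over the cSCC samples, of which 265 were in cSCC 21.

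The balance of Mmp3, Mmp10 and Mmp13 against the stromal MMPs and the inhibitors was taken as a ratio of counts within each library, which does not depend on scaling between libraries. The ratio to the summed counts of the 3 TIMP genes ran in NS from 0.366 (NS 9) through a median of 0.674 to 2.24 (NS 8), in AK from 0.845 (AK 10) through 3.24 to 11.4 (AK 16), and was 53.5 in cSCC 18, 14.4 in cSCC 19, 2.59 in cSCC 20 and 1.36 in cSCC 21. All AK samples but AK 10, and all cSCC samples, had more counts of these 3 MMP genes than of TIMPs, and 5 of 8 AK and 3 of 4 cSCC samples exceeded every NS sample. Where a ratio stands against 1 depends on gene length. With counts divided by exon length, the NS median was 1.08 and the lowest AK ratio 1.47 (AK 10). By that measure, 5 of 8 AK and 2 of 4 cSCC samples exceeded every NS sample. Mean log2 ratios differed by 2.01 for AK vs NS, by 3.24 for cSCC vs NS and by 1.23 for cSCC vs AK, with SDs of 0.84 in NS, 1.16 in AK and 2.41 in cSCC. The cSCC vs AK difference was thus smaller than the spread within cSCC. The 2 libraries with heart or lung genes gave the 2 lowest cSCC ratios, and without them the differences were 5.19 for cSCC vs NS and 3.18 for cSCC vs AK. These ratios rest on genes chosen as members, and they are descriptions without a test.

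Against the counts of Mmp2 and Mmp14, the 3 genes gave a similar picture. Their ratio had a median of 0.915 in NS (0.488 to 3.62) and of 4.84 in AK (0.771 to 16.5), and was 38.2, 16.8, 7.36 and 2.41 in cSCC 18, 19, 20 and 21, with mean log2 differences of 1.99 for AK vs NS and 3.36 for cSCC vs NS. The ratio of Mmp2 and Mmp14 to the TIMPs was nearly level across groups by comparison, with medians of 0.724 in NS (0.498 to 1.12), 0.680 in AK (0.643 to 1.10) and 0.7099 in cSCC (0.352 to 1.40). Divided by exon length before summing, the mean log2 difference of the 3 MMP genes over the TIMPs was 1.87 for AK vs NS, 2.503 for cSCC vs NS and 0.64 for cSCC vs AK, and that of Mmp2 and Mmp14 over the TIMPs was -0.03, -0.72 and -0.69.

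**Figure D4:**
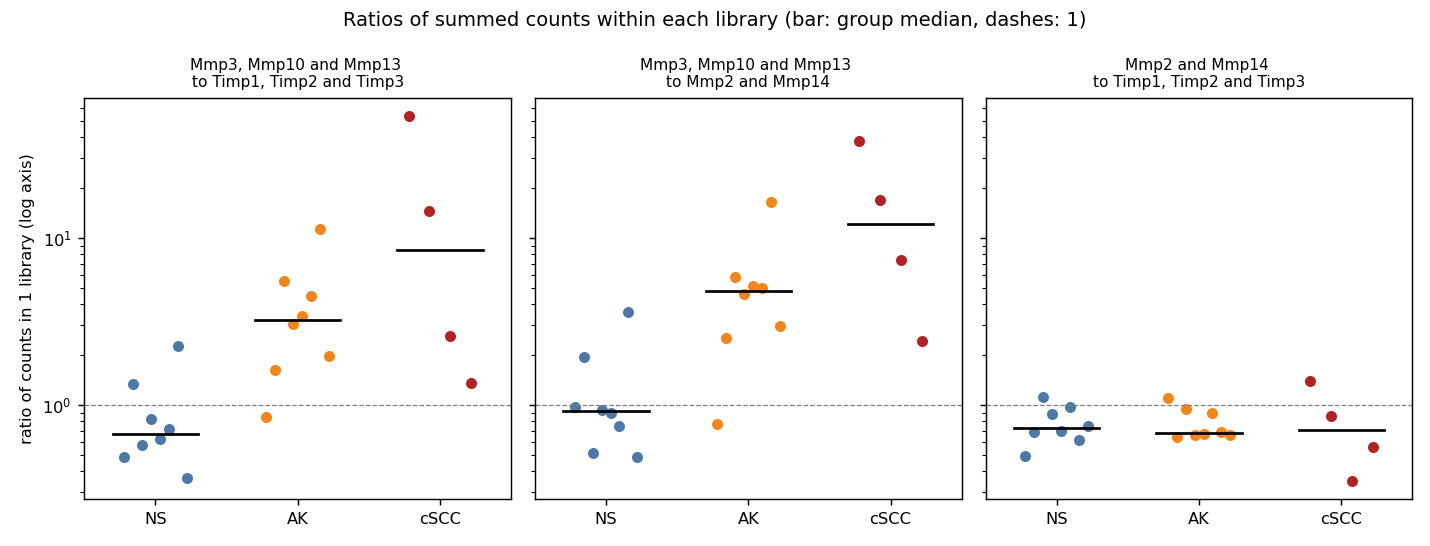
Ratios of summed counts within each library (log axis): Mmp3, Mmp10 and Mmp13 to the 3 TIMP genes (left panel) and to Mmp2 and Mmp14 (middle), and Mmp2 and Mmp14 to the TIMPs (right), 1 point per sample with a bar at the group median and dashes at a ratio of 1. The medians on the left are 0.674 in NS, 3.24 in AK and 8.51 in cSCC, and on the right 0.724, 0.680 and 0.7099.

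The make-up of each sum also differed. Mmp3 gave a median of 86.3% of the counts of Mmp3, Mmp10 and Mmp13 in NS, 60.2% in AK and 40.1% in cSCC, while Mmp13 gave 8.69%, 29.4% and 38.4% and Mmp10 gave 3.36%, 9.59% and 17.1%. Mmp12 gave a median of 76.0% of all counts of the 7 MMP genes in NS and 77.5% in AK, and 20.9% in cSCC (5.75% in cSCC 21 to 45.7% in cSCC 20). Among the inhibitors, Timp2 gave most of the counts in every NS and AK sample, with medians of 73.6% and 71.7%. In cSCC the share of Timp1 was 53.8% in cSCC 18, 46.5% in cSCC 19 and 47.8% in cSCC 20, above its highest share in NS (20.98%) and AK (20.4%), and 9.66% in cSCC 21, where Timp3 gave 70.6%. The high Timp1 share was thus seen in 3 cSCC samples and not in cSCC 20 alone. In cSCC 18, however, it stood for 35 of 65 TIMP counts. Timp1 was at 24.3 CPM there, inside the NS range, and Timp2 at 16.7 CPM, its lowest level of all samples.

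Within groups, Mmp3, Mmp10 and Mmp13 were correlated with each other and with the other 7 genes across samples on log2(CPM + 1), 24 pairs in each of NS and AK, 48 tests in all. The 4 cSCC samples are too few for a correlation. In AK, Pearson's r passed a Benjamini-Hochberg adjusted p of 0.05 by exact permutation in 9 pairs and Spearman's rho in 3, and in NS in 1 and 0 pairs. The AK pairs by Pearson's r were the 3 pairs among Mmp3, Mmp10 and Mmp13 and each of these genes with Mmp9 and with Timp1. By Spearman's rho they were Mmp10 with Mmp13, Mmp10 with Mmp9 and Mmp13 with Mmp9. Mmp10 and Mmp13 had r = 0.97 (n = 8, exact permutation p = 0.000124, adjusted p = 0.00595) and rho = 0.976 (exact p = 0.000397, adjusted p = 0.00952), and r was 0.94 once the 2 samples lying farthest from the Mmp10 median were removed. For Mmp10 and Mmp9 r was 0.92 (exact p = 0.000670, adjusted p = 0.0133), rho was 0.976 (exact p = 0.000397, adjusted p = 0.00952), and r was 0.99 without 2 samples. Mmp3 with Timp1 had r = 0.95 (n = 8, exact p = 0.00221, adjusted p = 0.0143) and rho = 0.857 (exact p = 0.0107, adjusted p = 0.129), and r fell to 0.81 without 2 samples.

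AK 16 was the highest AK sample for Mmp3, Mmp10, Mmp13, Mmp9 and Timp1, and AK 10, the deepest library, the lowest, so these correlations share their extremes. No pair with Mmp12, Mmp2, Mmp14, Timp2 or Timp3 passed in AK, although all 24 values of r were above 0. The 8 AK samples came from 4 mice, so that the permutation p-values may be too small. The pair that passed in NS was Mmp3 with Mmp10 (r = 0.80, n = 8, exact permutation p = 0.00940, adjusted p = 0.0451; rho = 0.643, exact p = 0.0962, adjusted p = 0.308). It rested on 2 samples, since r was 0.44 without them. Mmp10 and Mmp13 had r = 0.46 in NS (exact permutation p = 0.254, adjusted p = 0.359), and the difference from their r in AK was not tested.

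**Figure D5:**
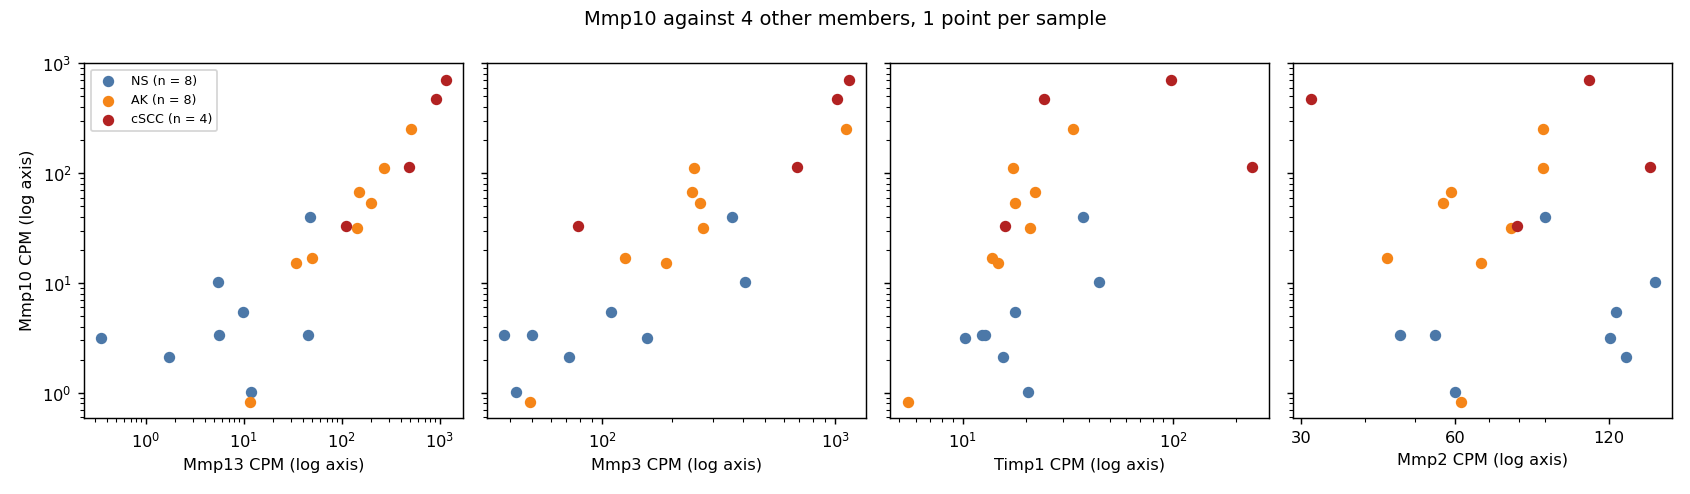
Level of Mmp10 (CPM, log axis) against that of Mmp13, Mmp3, Timp1 and Mmp2 (CPM, log axes), 1 point per sample, colored by group. In AK, Mmp10 and Mmp13 follow a line (r = 0.97 on log2(CPM + 1)), and Mmp10 and Mmp2 do not (r = 0.49).

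Over all 20 samples, the genes most like each of the 3 by Spearman's rho of CPM, among 12848 others, were listed as a description, since the groups, depth and shared mice all enter it. For Mmp3 they were Hilpda (0.886), Ppic (0.884), Samsn1 (0.881), Itgb1 (0.860) and Ccdc109b (0.853). For Mmp10 they were Itgb1 (0.938), Mmp13 (0.905), Ccl4 (0.899), Prelid2 (0.899) and Prl2c5 (0.889). For Mmp13 they included Tes (0.907), Mmp10 (0.905), Prelid2 (0.904) and Odc1 (0.889). Mmp9 ranked 12 for Mmp13 (0.851) and 56 for Mmp10 (0.799), and Timp1 ranked 26 for Mmp3 (0.793). The coefficient with Mmp2 was 0.31 for Mmp3, 0.0075 for Mmp10 and -0.21 for Mmp13, and with Timp2 it was 0.28, -0.071 and -0.33.

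Genes whose products activate, bind or restrain MMPs were counted by a list of 14, 9 to 11 of which were tested. In AK vs NS 0 of 9 were called, against 2.26% of all genes tested called higher and 2.38% lower. In cSCC vs NS 5 of 11 were called higher and 0 lower, against 11.7% and 7.65% of all genes. Those that rose included Plaur, the urokinase receptor (log2 fold change 3.69, SE 0.57, edgeR adjusted p = 0.00167), Plau, the urokinase (2.31, adjusted p = 0.0439), Bsg, a surface protein known to induce MMPs (2.07, adjusted p = 0.00321), and Plat, the tissue plasminogen activator (1.83, adjusted p = 0.00836). The 5 called were also called without cSCC 20 and 21, where 5.74% of all genes were called higher. In cSCC vs AK 5 of 11 rose (among them Plaur, Plat, Bsg and Furin, a protease that activates the Mmp14 proenzyme) and 1 fell, Reck, a membrane-anchored MMP inhibitor (log2 fold change -2.15, SE 0.65, adjusted p = 0.0275). Of all genes, 16% were called higher and 8.34% lower in this comparison. Without cSCC 20 and 21, 6 of 12 rose, against 6.71% of all genes, and Reck fell. Reck averaged 12.5 ± 6.08 CPM (SD, n = 8) over the AK samples and 2.34 ± 2.08 CPM (n = 4) over the cSCC samples.

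Of 19 cytokines and transcription factors known to induce MMP genes, 1 of 13 tested was called in AK vs NS, Ets1 (0.91, SE 0.20, edgeR adjusted p = 0.0200). Of all genes, 2.26% were called higher there. In cSCC vs NS 7 of 17 rose and 1 fell, against 11.7% and 7.65% of all genes. Il1b, an inflammatory cytokine, rose by 5.24 (SE 0.55, adjusted p = 0.000297) from a mean of 22.4 ± 9.88 CPM in NS to 812 ± 597 CPM in cSCC, and Osm, another cytokine, by 4.00 (adjusted p = 0.00753). Among the AP-1 genes, Fosl1 (3.02, adjusted p = 0.0295) and Junb (1.46, adjusted p = 0.00901) rose, Fosl2 fell by 1.23 (adjusted p = 0.0119), and Fos (0.12, adjusted p = 0.923), Jun (0.74, adjusted p = 0.311) and Jund (2.02, adjusted p = 0.0849) were not called. Areg and Hbegf, ligands of the epidermal growth factor receptor, and Ets1 completed the genes that rose. Without cSCC 20 and 21, 5 of 18 were called higher (Il1a, Il1b, Osm, Hbegf and Areg), against 5.74% of all genes. Fosl1 (3.29, adjusted p = 0.0597), Junb (0.91, adjusted p = 0.125) and Ets1 (0.26, adjusted p = 0.611) were not called there. Between cSCC and AK, 8 of 16 rose and 2 fell (Fosl2 and Ets2), against 16% and 8.34% of all genes. Without cSCC 20 and 21, 9 of 19 rose, against 6.71% of all genes, and Fosl2 alone fell, as Ets2 was not called (adjusted p = 0.157). Jund, among the 8, went from 3.31 to 0.39 (adjusted p = 0.796).

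Genes of matrix proteins that MMPs cut were followed as well. In cSCC vs NS 4 of 13 tested rose and 0 fell, against 11.7% and 7.65% of all genes. Those that rose included Lama3 (log2 fold change 2.96, edgeR adjusted p = 0.00724) and Lamb3 (2.24, adjusted p = 0.00911), which encode chains of laminins of the epidermal basement membrane. Col4a1, a basement membrane collagen, rose as well (1.67, adjusted p = 0.0336). The fibrillar collagen genes Col1a1, Col1a2 and Col3a1 gave 0.77, 0.16 and 0.34 and were not called. Without cSCC 20 and 21, Lama3 and Lamb3 were called and Col4a1 was not. Between cSCC and AK, 5 of 13 rose (Col4a2, Lamb3, Lama3, Col4a1 and Col1a1), against 16% of all genes. Of these, Col4a1 (adjusted p = 0.126) and Col4a2 (adjusted p = 0.371) were not called without cSCC 20 and 21.

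Markers of the cell types that may hold these transcripts were followed beside them, and their part in the levels of the MMP and TIMP genes was not tested. Of all genes, 2.26% were called higher and 2.38% lower in AK vs NS, and 11.7% and 7.65% in cSCC vs NS. Of 10 fibroblast markers, 0 were called higher and 1 lower (Thy1) in each of AK vs NS and cSCC vs NS, and Thy1 was not called in cSCC vs NS without cSCC 20 and 21 (-0.74 against -1.36, adjusted p = 0.151). Their summed level ran from 1164 to 8571 CPM in NS, from 1302 to 4994 CPM in AK and from 1384 to 6216 CPM in cSCC, overlapping as Mmp2 and Mmp14 did. Of 9 macrophage markers, Fcgr1 was called higher in AK vs NS and Cd14, C1qa and Fcgr1 in cSCC vs NS, where C1qa was lost without cSCC 20 and 21 (adjusted p = 0.0759). Of 8 neutrophil markers, 0 of 4 tested were called in AK vs NS, and Csf3r and Cxcr2, of 6 tested, rose in cSCC vs NS, where Cxcr2 was lost without these libraries (adjusted p = 0.0658). The neutrophil sum ran from 8.48 to 418 CPM in NS, from 40.2 to 142 CPM in AK and from 93.1 CPM (cSCC 18) to 545 CPM (cSCC 21) in cSCC, where Elane was at 0 in all samples.

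Among keratinocyte markers, 0 of 6 basal and 0 of 4 wound-edge markers were called in any of the 3 comparisons with all samples. In cSCC vs AK without cSCC 20 and 21, 2 of 6 basal (Krt5 and Itgb4) and 2 of 4 wound-edge markers (Krt6a and Krt17) were called higher. The share of all genes called higher there was 6.71%. Suprabasal markers fell, 1 of 6 (Lor) in AK vs NS and 5 of 6 in cSCC vs NS, where their sum ran from 692 to 10441 CPM against 9947 to 35349 CPM in NS. In cSCC vs NS without cSCC 20 and 21, 3 of 6 fell (Krt10, Lor and Flg) and Krt17 was called higher. Of 12762 genes tested there, 733 (5.74%) were called higher and 825 lower. Endothelial markers rose in cSCC vs NS for 5 of 6, and for 0 of 6 without cSCC 20 and 21. Of 6 heart muscle markers tested, 6 rose in cSCC vs NS, and 2 (Tnnc1 and Tnnt2) did without cSCC 20 and 21, while lung markers rose in 2 of 2, and in 0 of 2 without these libraries. Of 6 skeletal muscle markers 3 were called lower in cSCC vs NS, or 1 without the 2 libraries, and of 2 adipocyte markers tested 0 were called, or 2 of 3 lower without them.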

How the data were processed

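Total RNA of 20 tissues was sequenced in paired ends. The authors trimmed reads with Trimmomatic and aligned them with HISAT2. The paper names StringTie and GRCm38, whereas the submitters' processing notes name Trimmomatic 0.36, HISAT2 2.0.5 and featureCounts 1.5.2 with builds mm9 and hg19, so the counting tool and build are not settled here and the strand setting is not given. The deposited values are raw counts per gene symbol, not normalized. Samples were grouped by their labels.

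The 10 genes and all lists were chosen with earlier results of these data known. Named genes were all 10, the called genes of the fixed lists (up to 10 a list), and the 5 genes most like Mmp3, Mmp10 and Mmp13. Other genes were named as markers or after their values were seen (Fos, Jun, Jund, Timp4, Mmp8, Mmp27, Mmp1a, Mmp1b and the uncalled collagen genes). From the counts, CPM with TMM factors over the 20 samples were computed in edgeR 4.0.16 (R 4.3.3). Of 22090 genes, 18160 had a count. Each comparison used its 2 groups, filterByExpr, glmQLFit and glmQLFTest, adjusted over all genes tested, and the SE is the log2 fold change divided by the square root of F. The script was tested on data simulated with changes of 2 log2 units in either direction. Of the changed genes, 91.5% were recovered in AK vs NS, 35.1% in cSCC vs NS and 53.3% in cSCC vs AK. A gene not called in a comparison with cSCC may therefore still differ by that much. Alternatives were DESeq2 1.42.0, voom with weights for sample quality (limma 3.58.1), scaling by upper quartiles or by library size alone, other filters, a fit of all 20 samples and left-out samples. Correlations used scipy 1.17.1 and all 40320 pairings of 8 samples, with a pseudocount of 1 (alternative 0.1). Gene positions, exon lengths and overlaps came from GENCODE M21 on GRCm38 and promoters from RefSeq on GRCm38.p6. The study's own test was Student's on normalized values, replaced here by a count test. Some genes that the naming rule covers are not reported here.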

Additional observations from a re-analysis of the deposited data

Results flagged for a closer look

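Mmp12 in cSCC 21 was 22.5 CPM, far below the next cSCC sample at 779 CPM. On log2(CPM + 1) the gap was 0.871 of the range of the 4 samples, above Dixon's critical value at the 95% level. On CPM without logs the gap was a smaller part of the range and lay below that critical value. Of the 30 groups of samples checked (10 genes in 3 groups), 1 was marked in this way, and chance alone marks about 1 in 20. The same library held heart muscle genes and the lowest summed macrophage markers, although its Cd14 level was above every NS and AK sample. The part of either in its Mmp12 level was not tested.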

How the results depend on the processing

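No paired analysis was possible because the groups share no replicate numbers and the labels give no mouse. Over all genes, 542 were called in AK vs NS (264 higher, 278 lower), 2340 in cSCC vs NS (1414 higher, 926 lower) and 2935 in cSCC vs AK (1931 higher, 1004 lower). Library size alone turned the balance to 176 higher and 481 lower, 625 and 1332, and 1021 and 1356, with the median of all genes moving from -0.04 to -0.13, from 0.14 to -0.17 and from 0.17 to -0.09. Upper quartile factors gave 190 and 391 in AK vs NS. All calls among the 10 genes held under both scalings except Mmp3 in cSCC vs NS with library size alone (2.02, adjusted p = 0.0609). In AK vs NS, DESeq2 called 1049 genes, voom 1043 and the fit of all 20 samples 9, and left-out samples gave 164 (without NS 4) to 920 genes (without NS 8). Voom called 1308 in cSCC vs NS and 1270 in cSCC vs AK, and leaving out cSCC 20 and 21 gave 1558 and 1584. Left-out samples gave 1695 (without NS 5) to 3181 (without cSCC 18) genes in cSCC vs NS and 1787 (without cSCC 21) to 3994 (without cSCC 18) in cSCC vs AK.

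Of the 10 genes, 2 were called in AK vs NS, but 1 by voom (Mmp13), 0 in the fit of all 20 samples (Mmp10 adjusted p = 0.126, Mmp13 adjusted p = 0.0767) and 0 to 2 with a sample left out, where 0 came without NS 4 or without AK 16. In cSCC vs NS left-out samples gave 3 (without cSCC 20) to 5. In cSCC vs AK the count of 1 became 4 with DESeq2 (Mmp10, Mmp13 and Timp3 added), 3 without cSCC 20 and 21, and 0 (without cSCC 20) to 5 (without AK 16) with a sample left out. The DESeq2 total over all genes in this comparison is not given here, so its count is not read as particular to the 10 genes. The cSCC vs NS calls of Mmp13, Mmp10 and Mmp9 held in every alternative run. Directions turned only for values that were not called. With voom, Mmp12, Mmp2 and Mmp14 in cSCC vs NS were 0.25, 0.19 and 0.21 and Timp2 in cSCC vs AK was -0.14, while Timp2 without a count filter was -0.056. Without cSCC 20 and 21, Mmp14 in cSCC vs NS was 0.39, Timp3 was -0.97, and in cSCC vs AK Timp2 was -0.62 and Timp3 -0.32. With 1 sample left out, values in cSCC vs NS ran from -0.85 to 0.012 for Mmp12, -0.35 to 0.23 for Mmp2, -0.63 to 0.21 for Mmp14 and -0.22 to 1.28 for Timp3, and in cSCC vs AK from -0.81 to 0.38 for Timp2. Causes were not tested. Ratios without these 2 libraries or any cSCC sample, and list counts without the 2, were chosen after seeing the data: with 1 cSCC sample left out the log2 ratio to TIMPs in cSCC vs NS ran from 2.28 to 4.05, and in cSCC vs AK from 0.27 (without cSCC 18) to 2.04. The correlation counts were the same with a pseudocount of 0.1. Depth limits Mmp10 and Mmp13 in NS, where the lowest samples had 3 and 2 counts.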
